A study of Mus musculus with 6 samples.

Results

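The proteasome is built from subunits whose genes carry the symbols *Psma*, *Psmb*, *Psmc* and *Psmd* followed by a number, and the annotation of the arrays named 39 such genes. For each gene, the probe set that was annotated to that symbol alone was used, and where there were several, the one with the highest mean over the 6 arrays. This gave values for 38 of the 39 genes, out of 22180 genes measured in the same way. The gene left without a value was *Psma4*, an α ring subunit whose probe sets also carry the name of another transcript. RNA came from satellite cells (SCs), the stem cells of skeletal muscle, of adult male C57BL6 mice. The 3 *Slug*+/+ samples were wild type, and the 3 *Slug*-/- samples came from global knockouts, which lacked *Slug* (*Snai2*, a zinc finger transcription repressor) in every tissue and not only in SCs. In both genotypes the cells were sorted from uninjured hindlimb muscle as CD45-, Sca1-, CD11b-, CD31-, CD34+ and Integrin-α7+, were not cultured, and their RNA was hybridised to Affymetrix Mouse Gene 2.0 ST arrays. The study asked how gene expression in SCs differs without *Slug*. The samples are labelled biological replicates, but no label says if 1 sample is 1 mouse, and p-values therefore measure the spread between these samples.

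The proteasome degrades proteins that have been tagged with ubiquitin. Its barrel-shaped 20S core has outer rings of α subunits, which control entry, and inner rings of β subunits, some of which carry the proteolytic sites, while the 19S particle at each end has a base with an ATPase ring that unfolds substrates and a lid that removes the ubiquitin chains. Subunits of the core and the 19S particle are made in proportion, and in mammals a shortage of proteasome activity raises their transcription through the factor Nfe2l1. In skeletal muscle the system is known for its part in fibre atrophy, and proteasome activity is needed for SCs to persist and to enter the cell cycle.

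Promoters of the genes on which the results turn are shown first, with short sequences a script found in them. They come from RefSeq windows on GRCm38.p6 that run from 250 bases before to 50 bases after a transcription start, and 32 of the 39 genes had one or more windows, 34 in all. Stretches of 4 of the 6 genes that were higher in *Slug*-/- SCs at an unadjusted p under 0.05 are given 5′ to 3′ on the strand of the gene, with the CCAAT box (CCAAT, or ATTGG on the other strand) and the GC box (GGGCGG, or CCGCCC) in capitals. Of the others at that p, *Psmb2* had no window. The window of *Psma6*, which is not printed, held CCAAT boxes but no GC box. Those of *Psmc4* and *Psmd11* held the GC box but no CCAAT box. *Psma1* is read from chr7:114276117-114276266 on the minus strand, *Psmc4* from chr7:28050093-28050242 on the minus strand, *Psmd10* from chrX:140956712-140956861 on the minus strand and *Psmd11* from chr11:80428465-80428614 on the plus strand.
Psma1: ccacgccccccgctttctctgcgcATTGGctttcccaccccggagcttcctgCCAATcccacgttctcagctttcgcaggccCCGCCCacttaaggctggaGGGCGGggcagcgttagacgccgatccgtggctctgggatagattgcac
Psmc4: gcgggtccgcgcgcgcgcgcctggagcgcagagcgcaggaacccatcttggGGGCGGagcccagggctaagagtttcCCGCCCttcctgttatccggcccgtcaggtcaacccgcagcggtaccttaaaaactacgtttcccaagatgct
Psmd10: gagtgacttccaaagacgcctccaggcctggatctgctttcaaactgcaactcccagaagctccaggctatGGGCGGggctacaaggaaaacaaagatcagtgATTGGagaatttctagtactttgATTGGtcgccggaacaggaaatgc
Psmd11: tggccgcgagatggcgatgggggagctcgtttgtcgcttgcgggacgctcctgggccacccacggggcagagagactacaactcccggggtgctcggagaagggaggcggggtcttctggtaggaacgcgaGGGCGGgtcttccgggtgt
Among the 34 windows, 55.9% held a GC box on either strand, against 35.7% of all 32851 windows in the table, and 38.2% held CCAAT against 37.4%. The core of the antioxidant response element (TGACNNNGC, either strand), the kind of sequence that Nfe2l1 binds, lay in the windows of 5 members, or 14.7% of windows against 12.4% of all. It is in capitals in *Psmb5* (chr14:54617996-54618095, minus strand) and *Psmb6* (chr11:70525257-70525356, plus strand), which encode proteolytic subunits of the constitutive core.
Psmb5: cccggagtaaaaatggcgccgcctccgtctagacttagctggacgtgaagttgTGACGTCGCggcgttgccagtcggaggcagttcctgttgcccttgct
Psmb6: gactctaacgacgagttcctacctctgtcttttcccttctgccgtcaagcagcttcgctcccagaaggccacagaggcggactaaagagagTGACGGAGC
CAGGTG, the E-box core that Slug prefers, was found on either strand in the windows of 7 members, or 20.6% of windows, against 20.2% of all. One of them was *Psmb9*, an immunoproteasome gene that lies head to head with the peptide transporter gene *Tap1* in the MHC region. The sequence between their annotated starts (chr17:34187331-34187555, minus strand, which is the strand of *Psmb9*) is shown because the 2 genes share it, with the E-box (here CACCTG), the CCAAT box and the GC box in capitals.
Psmb9: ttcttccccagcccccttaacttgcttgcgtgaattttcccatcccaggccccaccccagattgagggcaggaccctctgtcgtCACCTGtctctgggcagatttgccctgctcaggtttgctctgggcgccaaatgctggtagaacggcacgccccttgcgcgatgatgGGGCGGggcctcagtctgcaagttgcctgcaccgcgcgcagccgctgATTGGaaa
A motif match here is a stretch of letters, and binding was not measured.

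*Snai2* checked the labels. Its log2 expression values were 6.25, 6.66 and 6.53 in *Slug*+/+ SCs against 5.15, 5.10 and 4.59 in *Slug*-/- SCs, and the difference was -1.53, with an adjusted p of 0.435 in limma that it shared with other genes, as it ranked 5 by p. The SC marker *Pax7* had means of 9.37 and 9.18, and the mean over 10 SC markers was 8.15 to 8.61 in *Slug*+/+ SCs against 8.40 to 8.60 in *Slug*-/- SCs. Olfactory receptor genes, which SCs should not express, gave the level of background, 3.04, below which 95% of the means of 1088 such genes lay. Both a property of the values and a gene group moved with genotype and are given here ahead of the results below. Genes with brighter signal were, as a class, higher in the *Slug*-/- values as deposited: among the 4936 genes with a mean of 5 to 9, the median difference was 0.11 and 62.5% of differences were positive, whereas among genes with a mean up to 3 the median was -0.04 and 41.9% were positive. Quantile normalization, which gives all arrays the same distribution of values, brought the genes at 5 to 9 to a median of 0.0042 with 50.6% positive. Genes of cycling cells were also higher in *Slug*-/- SCs, with a mean over 9 measured genes of 2.76 to 2.95 in *Slug*+/+ SCs against 3.55 to 4.25 in *Slug*-/- SCs. The part of either in the values of the proteasome genes was not tested beyond the quantile normalized values given with them. In bulk RNA, a change in the number of cells that express a gene and a change in RNA per cell cannot be told apart.

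Proteasome genes were mostly higher in *Slug*-/- SCs, by small amounts. Of the 38 differences (*Slug*-/- minus *Slug*+/+, log2), 33 were positive, which is 86.8% against 48.4% of all genes, and with quantile normalization 28 were positive. The median difference was 0.26 as deposited and 0.18 with quantile normalization, beside -0.010 and -0.0050 for all genes, and the members ranged from -0.48 for *Psmb3* to 0.83 for *Psmd11*. In limma, 6 members were higher at an unadjusted p under 0.05 (*Psma1*, *Psma6*, *Psmb2*, *Psmc4*, *Psmd10* and *Psmd11*), and 3.31% of all genes were. None was lower at that p, against 2.49% of all genes. On 9 members, or with quantile normalization 8, every *Slug*-/- array lay above every *Slug*+/+ array, as it did for 5.24% of all genes, and none showed the reverse, as 5.4% did. No member reached a 2-fold change at an unadjusted p under 0.05, where 0.586% of all genes were higher and 0.311% lower, and no gene of the array passed an adjusted p of 0.05 (0%, with 1286 genes at an unadjusted p under 0.05). The smallest adjusted p among the members was 0.726 in limma.

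**Figure D1:**
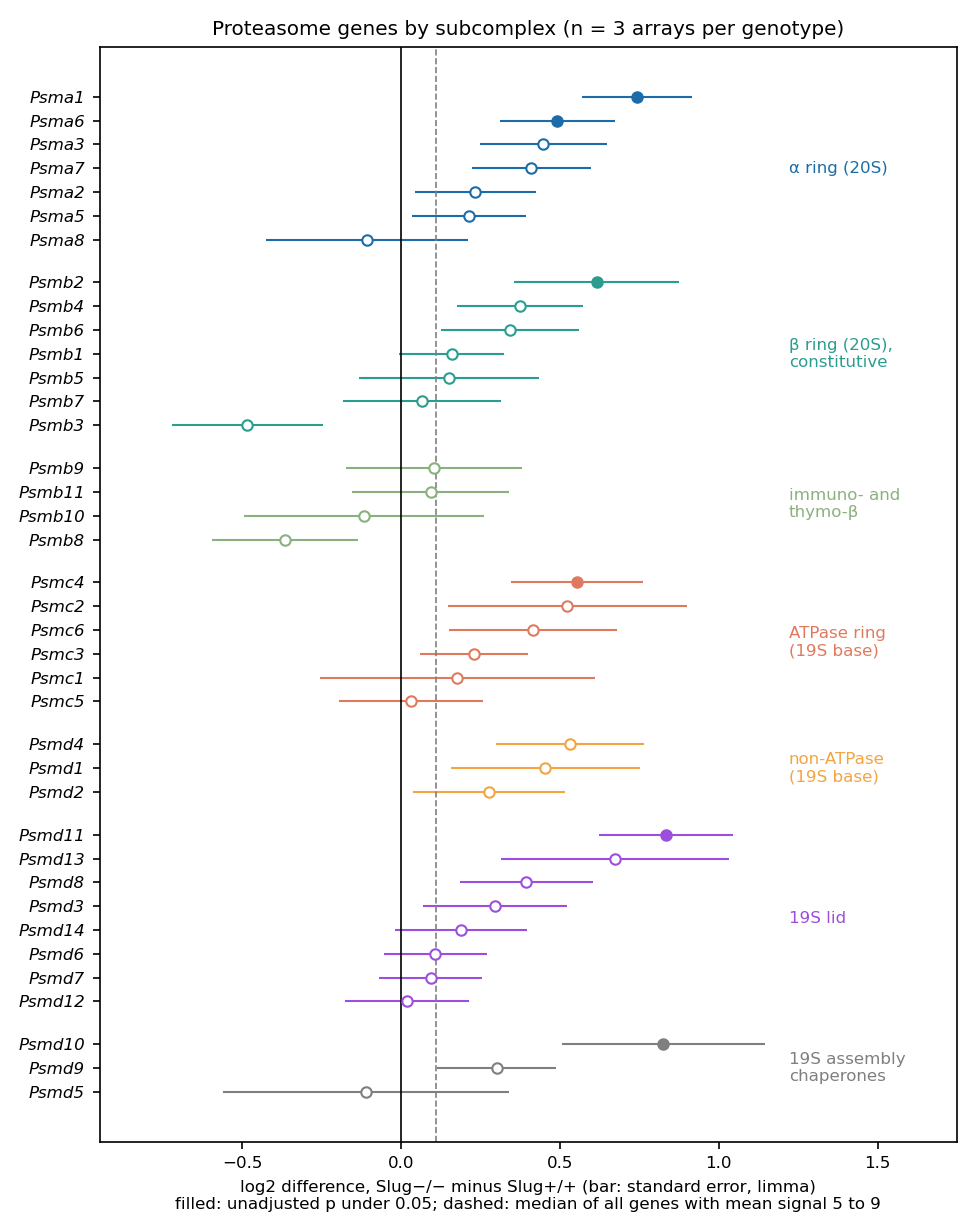
Difference between *Slug*-/- and *Slug*+/+ SCs (horizontal axis, log2) for each of the 38 measured proteasome genes, grouped by subcomplex, with bars for the standard error in limma, filled points for an unadjusted p under 0.05 and a dashed line at 0.11, the median of all genes with a mean signal of 5 to 9. The filled points are 6 genes between 0.49 and 0.83, and 5 genes lie left of 0.

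The α ring of the core had 7 measured genes, with a median difference of 0.41 (0.30 with quantile normalization). Mean deposited values over the ring were 5.61 to 5.70 in *Slug*+/+ SCs against 5.96 to 6.05 in *Slug*-/- SCs, without overlap. *Psma1* measured 6.18, 6.14 and 5.98 in *Slug*+/+ SCs and 6.66, 6.93 and 6.94 in *Slug*-/- SCs. The lowest *Slug*-/- array was well above the highest *Slug*+/+ array, and the difference was 0.74 ± 0.17 (SE), or 1.67-fold, at an unadjusted p of 0.00299 and adjusted p of 0.726 in limma. *Psma6* read 7.28, 7.49 and 7.60 against 8.13, 7.86 and 7.85. Its arrays did not overlap either, and the difference was 0.49 ± 0.18 (SE; unadjusted p 0.0273, adjusted p 0.825 in limma). That call was lost with quantile normalization (0.37) and on removal of replicate 1 (0.40) or 2 (0.51) of *Slug*+/+ or replicate 1 of *Slug*-/- (0.40). It was also lost with only genes above the median signal and with a replicate block. *Psma3* and *Psma7*, which are ring subunits as well, had arrays that did not overlap, with differences of 0.45 and 0.41, and missed the unadjusted threshold. *Psma2* differed by 0.23 with overlapping arrays. *Psma5* stayed under background on all 6 arrays, at 2.60, 2.80 and 2.55 against 2.94, 2.65 and 2.998, and its other probe set was under background too, so no fold is given. *Psma8*, which encodes the α subunit of germ cells, was at 2.21, 3.15 and 2.02 against 2.12, 2.65 and 2.29, above background on 1 array only. Its sign changed with the array left out.

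The constitutive β ring had 7 genes and a lower median, 0.16 (0.11 with quantile normalization). Its array means of 6.96 to 7.08 in *Slug*+/+ and 6.98 to 7.36 in *Slug*-/- SCs overlapped. *Psmb2*, a β subunit without a proteolytic site, measured 6.87, 7.79 and 7.57 against 8.11, 7.86 and 8.10. *Slug*+/+ replicate 1 was the low array, and the highest *Slug*+/+ value lay just under the lowest *Slug*-/- value. The difference was 0.62 ± 0.26 (SE; unadjusted p 0.047, adjusted p 0.858 in limma), and 0.35 without *Slug*+/+ replicate 1. The call on *Psmb2* was also lost without *Slug*+/+ replicate 3 (0.70) or any single *Slug*-/- array (0.57, 0.70 and 0.58), with quantile normalization (0.50) and in the test without moderation. Array weights, a replicate block, a floor at background and a filter for genes above the median signal lost it as well. *Psmb3*, likewise not proteolytic, went the other way, with 4.46, 4.65 and 4.35 against 4.48, 3.76 and 3.77. Only *Slug*-/- replicate 1 reached the *Slug*+/+ range, and the difference was -0.48 ± 0.24 (SE; unadjusted p 0.0793, adjusted p 0.892 in limma). Without that array it was -0.72, with an unadjusted p of 0.00919. *Psmb4* and *Psmb1*, the remaining β subunits without proteolytic sites, differed by 0.37 and 0.16 with overlapping arrays.

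The 3 proteolytic subunits of the constitutive core showed no difference past either threshold. *Psmb5*, which carries the chymotrypsin-like site, read 8.42, 7.44 and 7.56 in *Slug*+/+ SCs and 7.86, 7.81 and 8.19 in *Slug*-/- SCs, a difference of 0.15 ± 0.28 (SE; adjusted p 0.971 in limma). The *Slug*+/+ arrays spanned the *Slug*-/- arrays on both sides. *Psmb6*, with the caspase-like site, was at 6.01, 6.26 and 6.55 against 6.78, 6.32 and 6.75, which differed by 0.34 ± 0.22 (SE; adjusted p 0.908). The 2 ranges overlapped through *Slug*+/+ replicate 3 and *Slug*-/- replicate 2. *Psmb7*, with the trypsin-like site, had 7.72, 7.02 and 7.40 against 7.72, 7.10 and 7.51, and its difference of 0.065 ± 0.25 (SE; adjusted p 0.986), with ranges that overlapped nearly in full, became -0.051 with quantile normalization.

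Immunoproteasome subunits, which replace those 3 under interferon or in immune cells, had differences of both signs, with 2 of 4 positive and a median of -0.013 when *Psmb11*, the subunit of thymic epithelium, was counted with them (-0.060 with quantile normalization, 0.032 with array medians subtracted). *Psmb8* measured 4.47, 4.997 and 5.09 in *Slug*+/+ and 4.48, 4.73 and 4.25 in *Slug*-/- SCs. *Slug*+/+ replicate 1 lay within the lower *Slug*-/- range, and the difference of -0.36 ± 0.23 (SE; adjusted p 0.908 in limma) ran from -0.56 without that array (unadjusted p 0.0392) to -0.25 without *Slug*-/- replicate 3 (unadjusted p 0.372). *Psmb9* was at 3.74, 4.11 and 4.74 against 4.51, 4.05 and 4.35, with overlapping arrays and a difference of 0.10 ± 0.28 (SE). *Psmb10* was at 5.78, 4.39 and 4.997 against 4.55, 4.85 and 5.42, again overlapping, and differed by -0.12 ± 0.38 (SE). The sign of both depended on which array was left out. *Psmb11* was under background throughout, at 2.61, 1.97 and 2.25 against 2.34, 2.72 and 2.05. As each immunosubunit takes the place of 1 constitutive subunit, the log2 difference between partners was taken within each array and compared between genotypes, a comparison added after the data were seen. *Psmb9* minus *Psmb6* was -2.27, -2.15 and -1.81 in *Slug*+/+ and -2.27, -2.27 and -2.41 in *Slug*-/- SCs, a shift of -0.24 with a two-sided exact permutation p of 0.1, which is the smallest that 20 splits allow, and 0.3 after Benjamini-Hochberg adjustment over the 3 pairs. The groups of this pair were apart only narrowly, with *Slug*+/+ replicate 1 at -2.268 and *Slug*-/- replicate 1 at -2.270. *Psmb8* minus *Psmb5* shifted by -0.51 (exact permutation p 0.4, adjusted 0.6) and *Psmb10* minus *Psmb7* by -0.18 (exact permutation p 0.7, adjusted 0.7). A pair's offset within an array also holds the probe sets' own response, and only its shift between genotypes was read. The shifts are from deposited values, in which brighter genes were higher in *Slug*-/- SCs as a class. In each pair the constitutive gene was the brighter. With quantile normalization the separate differences were 0.084 for *Psmb9* and 0.23 for *Psmb6*, and -0.41 for *Psmb8* and 0.042 for *Psmb5*. They were -0.20 for *Psmb10* and -0.051 for *Psmb7*.

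**Figure D2:**
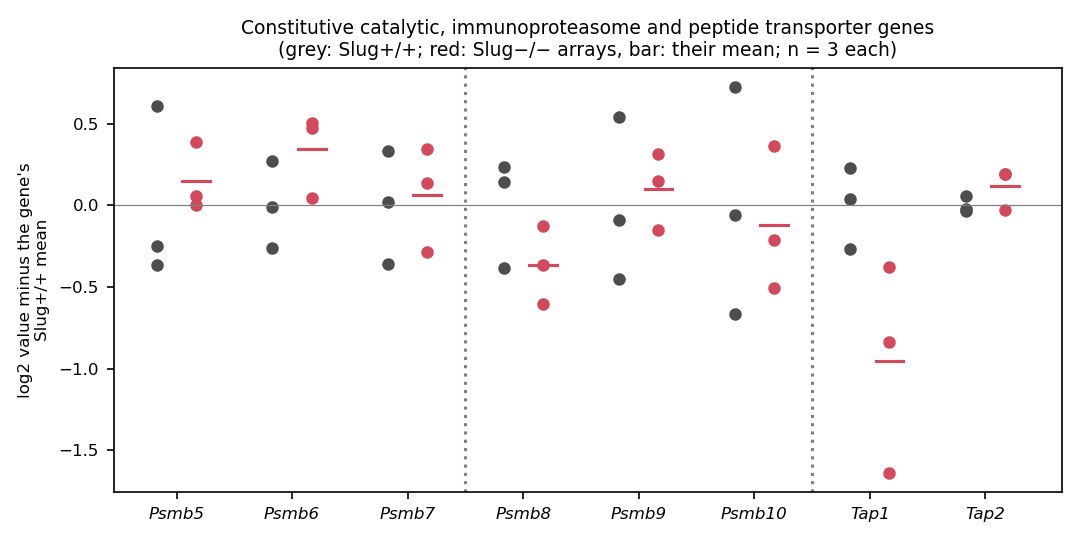
Log2 value of each array minus the *Slug*+/+ mean of the same gene (vertical axis) for the constitutive proteolytic subunits, their immunoproteasome partners and the peptide transporters *Tap1* and *Tap2*, with *Slug*+/+ arrays in grey, *Slug*-/- arrays in red and a red bar at the *Slug*-/- mean. The 2 genotypes overlap for the 6 proteasome genes and for *Tap2*, and are apart for *Tap1*, whose *Slug*-/- mean is at -0.95.

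In the 19S base, the 6 genes of the ATPase ring were all positive as deposited, 5 were with quantile normalization (*Psmc5* at -0.079), and 4 were without *Slug*+/+ replicate 2 (*Psmc1* at -0.17 and *Psmc5* at -0.095). The median was 0.32 (0.21 with quantile normalization), and the ring's array means of 5.94 to 6.54 and 6.42 to 6.73 overlapped through *Slug*+/+ replicate 1. *Psmc4*, whose loss is known to deplete SCs in mice, measured 6.27, 5.74 and 6.13 against 6.58, 6.42 and 6.80. The *Slug*-/- arrays were all above the *Slug*+/+ arrays, by 0.55 ± 0.21 (SE; unadjusted p 0.0296, adjusted p 0.826 in limma). The call on *Psmc4* was lost with quantile normalization (0.44) and on removal of replicate 2 of *Slug*+/+ (0.40) or replicate 1 (0.56) or 3 (0.46) of *Slug*-/-. It was also lost with only genes above the median signal and with an intensity trend in limma's prior. The other ATPases ran from 0.031 for *Psmc5* to 0.52 for *Psmc2*, and their arrays overlapped. *Psmc2* has a second probe set, which read 3.50, 3.81 and 3.62 against 3.98, 6.30 and 4.29. Both probe sets of *Psmc2* had a positive difference, and the high array of the second was *Slug*-/- replicate 2. Of the base subunits that are not ATPases, *Psmd4*, a receptor for ubiquitin chains, was at 5.33, 5.59 and 6.14 against 6.18, 6.16 and 6.32. The groups touched closely without overlapping, as *Slug*+/+ replicate 3 lay just under the lowest *Slug*-/- array. Its difference was 0.53 ± 0.23 (SE; unadjusted p 0.0548, adjusted p 0.868 in limma), and it ran from 0.35 without *Slug*+/+ replicate 1 (unadjusted p 0.172) to 0.76 without *Slug*+/+ replicate 3 (unadjusted p 0.0073). *Psmd1* and *Psmd2*, the large scaffolds on which substrates and shuttle factors dock, differed by 0.45 and 0.28 with overlap.

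All 8 genes of the lid had a positive difference in the deposited values, and 5 had one with quantile normalization, where *Psmd12*, *Psmd7* and *Psmd6* were at -0.093, -0.014 and -0.010. The deposited differences ran from 0.018 for *Psmd12*, which was -0.077 without *Slug*+/+ replicate 2, to 0.83 for *Psmd11*, with a median of 0.24 (0.15 with quantile normalization). Averaged over the lid, the arrays did not overlap in the deposited values, at 5.97 to 6.14 in *Slug*+/+ and 6.30 to 6.41 in *Slug*-/- SCs. Array means with quantile normalization are not given. *Psmd11*, a scaffold that clamps the lid to the core and is limiting for assembly of the whole particle, measured 7.06, 7.08 and 6.90 against 7.97, 8.10 and 7.47. Its *Slug*-/- arrays were all higher, with replicate 3 nearest to the *Slug*+/+ group. The difference was 0.83 ± 0.21 (SE), or 1.78-fold, at an unadjusted p of 0.00468 and adjusted p of 0.762 in limma. *Psmd13* and *Psmd8* differed by 0.67 and 0.39 and *Psmd3* by 0.29, each with overlapping arrays. *Psmd14*, the deubiquitinase that removes ubiquitin chains at the lid, differed by 0.19, and its partner *Psmd7* by 0.09. *Psmd6* completed the lid at 0.11.

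The 3 chaperones that carry a *Psmd* symbol assist assembly of the base and are no part of the finished particle. *Psmd10* (gankyrin), which binds the ATPase encoded by *Psmc4*, was at 3.50, 4.79 and 4.33 in *Slug*+/+ and 5.17, 4.93 and 4.998 in *Slug*-/- SCs. The *Slug*-/- arrays lay close together and above the others, and *Slug*+/+ replicate 1 was the low one. Its difference was 0.83 ± 0.32 (SE), or 1.77-fold, at an unadjusted p of 0.0339 and adjusted p of 0.833 in limma. Without *Slug*+/+ replicate 1 the difference of *Psmd10* was 0.47, and the call was lost without any array other than *Slug*+/+ replicate 2 (0.47 to 0.89), with quantile normalization (0.79), with values under background raised to it and in the test without moderation. *Psmd5* spread widely among the *Slug*-/- arrays, at 5.31, 5.46 and 5.19 against 6.23, 4.22 and 5.17. The highest and the lowest array were both *Slug*-/-, and the difference of -0.11 ± 0.45 (SE) became 0.38 without *Slug*-/- replicate 2. *Psmd9* differed by 0.30 with overlap.

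**Figure D3:**
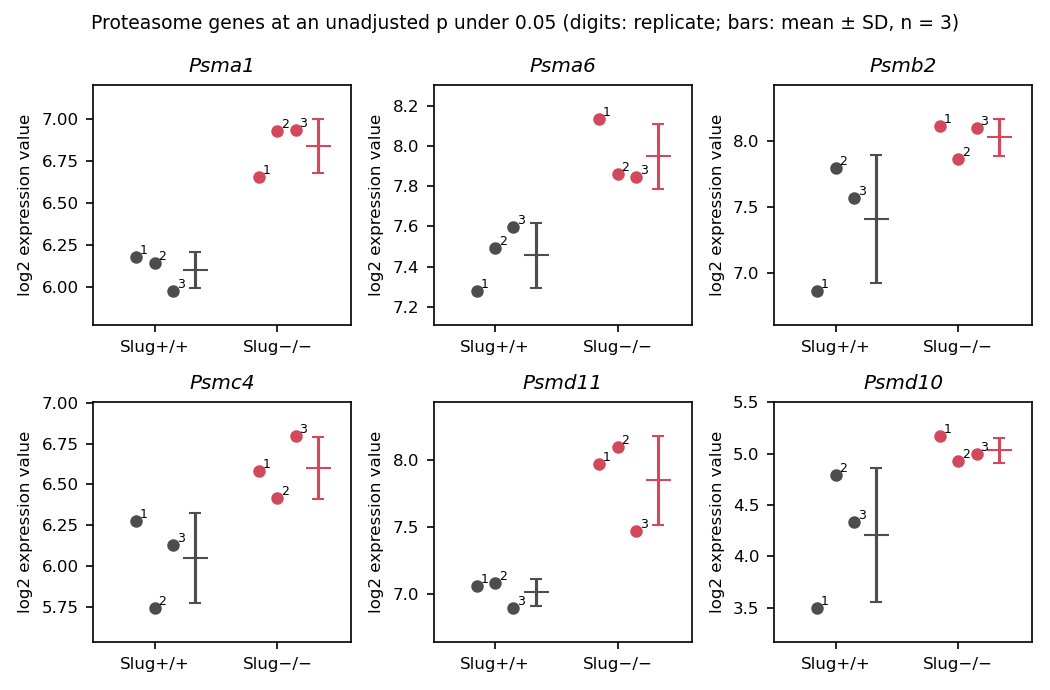
Log2 expression value on each array (vertical axes, which differ between panels and do not start at 0) of the 6 proteasome genes at an unadjusted p under 0.05, by genotype, with the replicate number beside each point and bars for mean ± SD over 3 arrays. In each panel the *Slug*-/- arrays lie above the *Slug*+/+ arrays, with the smallest gap for *Psmb2*.

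Seen by array, the mean over the 38 members was 5.86, 5.79 and 5.90 in *Slug*+/+ SCs and 6.18, 5.99 and 6.18 in *Slug*-/- SCs. The *Slug*-/- arrays were above the others, and *Slug*-/- replicate 2 was the closest to them. That array had 27 of 38 genes above their *Slug*+/+ mean, and the other *Slug*-/- arrays had 32 each. In the 9 pairings of 1 array from each genotype, 24 to 33 of the 38 members were higher on the *Slug*-/- array, while the share over all genes was 45.8% to 53.3%. These are deposited values, and 28 of the members have a mean of 5 to 9. Of all genes in that band 62.5% had a positive difference between genotypes. *Slug*-/- replicate 1 held the highest of the 6 values for 14 members and *Slug*+/+ replicate 2 the lowest for 17. Leaving out 1 array at a time kept the members' median between 0.20 and 0.37.

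**Figure D4:**
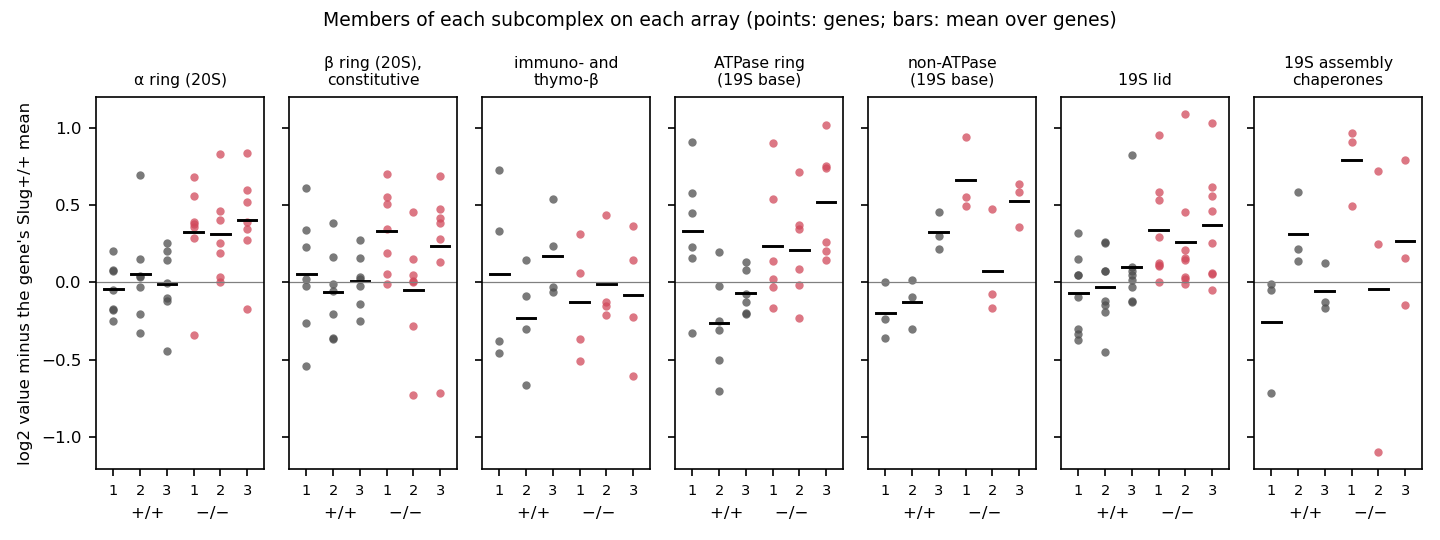
Log2 value minus the *Slug*+/+ mean of the same gene (vertical axis) for each member (points) on each of the 6 arrays (horizontal axis, *Slug*+/+ in grey, *Slug*-/- in red), by subcomplex, with a black bar at the mean over genes. In these deposited values the bars of the α ring and the lid are higher on the 3 *Slug*-/- arrays than on the 3 *Slug*+/+ arrays, and those of the immunoproteasome and thymoproteasome subunits overlap.

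Set beside genes of like signal, the members stood as follows. Of the 28 proteasome genes with a mean of 5 to 9, a band chosen after the data were seen, 27 had a positive difference, against 62.5% of all genes there, with a median of 0.32 against 0.11. In that band 5 members were higher at an unadjusted p under 0.05 and 8 had arrays that did not overlap, where the shares of all genes were 7.01% and 9.4%. After quantile normalization 22 of the 28 were positive, against 50.6%, and the median was 0.21 against 0.0042. Then 2 of the 28 were higher at an unadjusted p under 0.05 (*Psma1* at 0.64, and *Psmd11* at 0.70) and 7 did not overlap, against 4.52% and 6.18%.

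**Figure D5:**
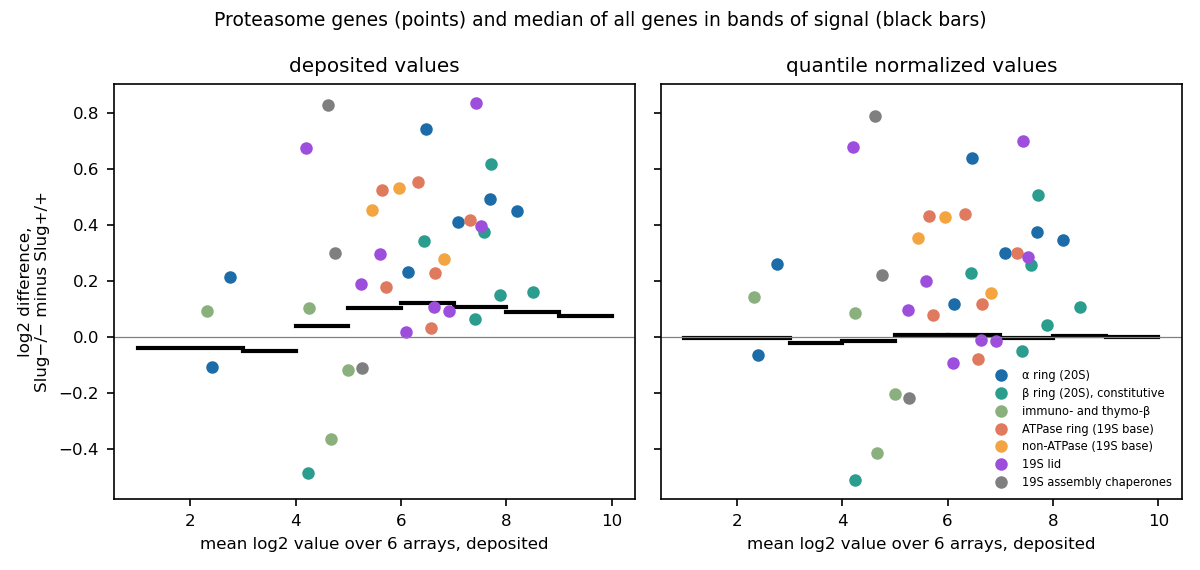
Difference between genotypes (vertical axis, log2) against mean signal over 6 arrays (horizontal axis, log2) for the 38 members, coloured by subcomplex, with black bars at the median of all genes in bands of signal, for the deposited values on the left and quantile normalized values on the right. The black bars rise to 0.12 at a signal of 6 to 7 on the left and lie near 0 on the right, and 33 members on the left and 28 on the right lie above 0.

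Genes around the proteasome are given by list. Of 9 measured genes for further parts, activators and an inhibitor, 6 had a positive difference, the median was 0.13 and none passed an unadjusted p under 0.05. *Uchl5* and *Usp14*, the deubiquitinases that dock on the 19S base, had the smallest p of them. *Uchl5* measured 3.91, 4.62 and 5.68 against 6.18, 5.53 and 5.37, a difference of 0.96 with overlapping arrays that came to 0.55 on removal of *Slug*+/+ replicate 1 and reached 1.43 on removal of replicate 3 (unadjusted p 0.00445). *Usp14* measured 4.53, 3.11 and 4.05 against 4.33, 4.58 and 4.85, a difference of 0.69 that was 1.003 without *Slug*+/+ replicate 1, which reached into the *Slug*-/- range (unadjusted p 0.0194), and 0.29 without *Slug*+/+ replicate 2. The activator genes *Psme1*, *Psme2* and *Psme3* were at 0.13, -0.07 and -0.09, and *Psme4* at 0.38. The core assembly factors *Psmg1* (-0.12), *Psmg2* (-0.014), *Psmg3* (0.18), *Psmg4* (-0.10) and *Pomp* (0.70) had overlapping arrays, and none passed. They were listed with *Akirin2* and *Fbxo7*. Among these 7 genes 4 were positive and 1 was higher at the unadjusted threshold. This was *Akirin2*, needed for import of proteasomes into the nucleus, at 5.93, 5.65 and 5.65 against 6.16, 6.13 and 6.37. Its arrays did not overlap, and the difference of 0.48 had an adjusted p of 0.825 in limma. The unadjusted call was lost on removal of replicate 2 (0.43) or 3 (0.43) of *Slug*+/+ or replicate 3 of *Slug*-/- (0.40) and with quantile normalization. It was also lost with only genes above the median signal and with an intensity trend in the prior. *Fbxo7*, an F-box protein that binds the proteasome inhibitor, followed at 3.93, 3.90 and 4.48 against 4.68, 4.50 and 4.35, a difference of 0.41 with overlap (0.31 to 0.60 with 1 array left out, past the unadjusted threshold without *Slug*+/+ replicate 3).

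Of 9 genes for transcription factors that act on proteasome genes and for their processing, 6 were positive and none passed in either direction. *Nfe2l1*, which drives proteasome transcription when activity falls short, differed by 0.07, and *Nfe2l2*, the oxidative stress factor, by 0.21. *Mafg*, a small partner of both, read 4.80, 4.89 and 4.83 against 4.59, 4.45 and 4.65. All *Slug*-/- arrays were lower, with a difference of -0.28 at an adjusted p of 0.904 in limma. *Maff*, of the same family, read 5.57, 6.22 and 5.59 against 5.36, 5.39 and 5.65, a difference of -0.33 with overlap that was -0.11 without *Slug*+/+ replicate 2. Of 10 measured genes for ubiquitin activation and shuttling 8 were positive, with a median of 0.26, and none passed. *Ubqln1*, a shuttle factor, had 7.04, 6.55 and 6.73 against 7.26, 6.99 and 7.28 (difference 0.40), and *Zfand5*, which stimulates the proteasome, had 6.91, 7.72 and 7.52 against 8.19, 8.05 and 7.52 (difference 0.54). Both pairs of ranges overlapped, and with 1 array left out the differences ran from 0.29 to 0.54 and from 0.30 to 0.74. *Ubqln1* passed the unadjusted threshold without *Slug*+/+ replicate 1, and *Zfand5* without *Slug*-/- replicate 3. The ubiquitin genes themselves had no probe set with a single symbol and were not analysed here.

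Among 21 genes of the APC/C and SCF ligases, which mark cell cycle proteins for the proteasome, 12 were positive and 1 passed. *Cdc20*, the mitotic activator of the APC/C, measured 2.85, 3.06 and 3.32 against 4.04, 3.40 and 4.97. It was higher on every *Slug*-/- array, by 1.06, with an adjusted p of 0.823 in limma. The unadjusted call on *Cdc20* was lost on removal of replicate 1 (0.95) or 2 (1.05) of *Slug*+/+ or replicate 3 of *Slug*-/- (0.64). It was also lost in the test without moderation and with values under background raised to it. *Fzr1*, the activator used in quiescence and before S phase, was at 5.30, 5.20 and 4.24 against 5.19, 6.001 and 5.77, a difference of 0.74 with overlap that was 0.40 on removal of *Slug*+/+ replicate 3 and 0.97 on removal of *Slug*-/- replicate 1 (unadjusted p 0.0294). The 10 genes of MHC class I presentation, which receives its peptides from the proteasome, had a median of 0.04, with 1 gene higher and 1 lower at the unadjusted threshold. *Tap1*, the neighbour of *Psmb9*, read 7.06, 7.25 and 6.75 against 6.18, 5.38 and 6.64. Its *Slug*-/- arrays were all lower and replicate 3 lay near the *Slug*+/+ range. The difference of *Tap1* was -0.95, the adjusted p was 0.823 in limma, and the unadjusted call was lost on removal of replicate 1 (-0.93) or 2 (-0.84) of *Slug*+/+, in the test without moderation (p 0.0746) and with values under background raised to it. Without *Slug*-/- replicate 2 the difference was -0.61. On chromosome 17 the order of genes is *Psmb9*, *Tap1*, *Psmb8* and *Tap2*, and their differences were 0.10, -0.95, -0.36 and 0.12. *Calr*, a chaperone of class I assembly, was at 7.08, 6.91 and 7.33 against 7.46, 7.60 and 7.54, higher by 0.43. That call was lost without any single array but *Slug*+/+ replicate 3 (0.33 to 0.46) and with quantile normalization. A replicate block, an intensity trend in the prior and a filter for genes above the median signal lost it as well. Of the 4 ligases known from muscle atrophy 2 were positive. *Fbxo30* was at 5.01, 6.51 and 6.14 against 6.74, 5.71 and 6.26, overlapping, and *Trim63* was under background on all arrays, at 2.72, 2.47 and 2.77 against 2.76, 2.96 and 2.67.

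Markers of other states and cells moved with genotype in part. Of the 9 cycling genes 8 were positive and 5 passed the unadjusted threshold, *Mki67* (2.47) and *Cdk1* (2.39) among them, and none was lower. Of these 5, 4 were under background on every *Slug*+/+ array, *Cdk1* included, whose difference was 1.87 with values under background raised to it. The mean over 10 genes induced by tissue dissociation was 10.79 to 11.11 in *Slug*+/+ and 10.51 to 10.92 in *Slug*-/- SCs, with overlap. Of these genes 7 were negative, *Fos* (-0.63) and *Atf3* (-0.39) among them, and 3 were positive, with *Hspa1b* at 0.24. None passed the unadjusted threshold. The mean of 7 immune genes was 3.10 to 3.22 against 2.80 to 3.21, with 4 of them under background on all arrays, *Ptprc* among these. *Cd68* was lower (-0.96), *Lyz2* was at 0.34 with overlap, and *Adgre1* (-0.30) and *Csf1r* (0.14) differed under background. Fibro-adipogenic genes averaged 5.17 to 5.42 against 5.33 to 5.79 over 5 genes, with *Lum* at 1.05, *Thy1* at 0.50, *Col1a1* at 0.062, *Dcn* at -0.10 and *Pdgfra* at -0.12. The call on *Lum* was lost in 6 alternatives, with 0.68 without *Slug*-/- replicate 2, and the call on *Thy1* was lost in 8. Endothelial genes averaged 4.07 to 4.21 against 4.12 to 4.58 over 6. They were *Emcn* (0.74, under background), *Kdr* (0.33), *Pecam1* (0.15), *Tek* (0.057), *Cdh5* (-0.0088) and *Tie1* (-0.18). The unadjusted call on *Emcn* was lost in 6 alternatives. Mural genes averaged 5.07 to 5.86 against 5.67 to 5.80 over 5. They were *Myh11* (0.38), *Acta2* (0.22), *Rgs5* (0.21), *Cspg4* (0.14) and *Pdgfrb* (-0.087). For fibre genes the means were 3.997 to 4.34 against 4.07 to 4.34 (*Acta1* 0.52, *Tnnt3* -0.35), and for the 2 measured glial genes 3.15 to 3.57 against 3.17 to 3.62 (*Sox10* -0.060, *S100b* 0.14). SC markers with the smallest p were *Itga7* at 0.35 and *Cxcr4* at 0.35. Of the 10 SC markers 7 were positive, and 3 were negative, *Calcr* (-0.24), *Pax7* (-0.19) and *Chodl* (-0.055). What part these groups had in the values of the proteasome genes was not tested.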

How the data were processed

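The authors deposited log2 expression values for every probe set on each array, made from Affymetrix Mouse Gene 2.0 ST arrays with Gene Expression Console, from RNA of high integrity. Neither the algorithm nor the test of Transcriptome Analysis Console is given in the sources used here, and with the latter the authors found differential genes at a fold of 2 and a p of 0.05. No arrays were pooled here, and 0 sample columns were left unused. Samples were grouped by the genotype in their labels. Of 41345 probe sets, 23521 had 1 symbol in the platform's annotation, 1820 several and 16004 none, and 1082 genes had more than 1 probe set. All 38 measured members matched the reference gene table by Entrez ID with 0 symbols changed, on 15 chromosomes.

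The 22180 genes were fitted by lmFit and eBayes of limma 3.58.1 under R 4.3.3, *Slug*-/- minus *Slug*+/+, with 3.57 degrees of freedom in the prior, on all 6 arrays, with Benjamini-Hochberg adjustment over all genes and no filter on dim genes. The script was tested on simulated data. Only 3 arrays per genotype limit the precision. Arrays of 1 genotype differed by an SD of 0.519 to 0.566, so none was a duplicate. Genes printed with all 6 values are the proteolytic subunits and their partners, *Psma1*, *Psmd11*, the member of smallest p in each direction in each subcomplex, members at an unadjusted p under 0.05, members under background, and the 2 genes of smallest p in each list of the pathway. For lists of markers the 2 genes, and in some lists others, are given by their difference. Members and lists were chosen with earlier results of these data known. Alternatives were another prior, a test without moderation, other normalizations, array weights, a filter, a floor at background, means of probe sets, a replicate block and each array left out.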

Additional observations from a re-analysis of the deposited data

How the results depend on the processing

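Over the alternatives run, *Psma1* (0.64 to 0.83) and *Psmd11* (0.70 to 1.02) kept an unadjusted p under 0.05 in each, and no member reached an adjusted p of 0.05 in any. The 6 members higher at an unadjusted p, beside 3.31% of all genes, became 9 with array medians subtracted, beside 4.05%. With that setting 55.9% of all differences were positive. The count was 4 in the test without moderation (2.66% of all genes), 3 with only genes above the median signal (4.36%) and 2 with quantile normalization (2.9%). With 1 array left out 3 to 8 members were higher, beside 2.55% to 3.98% of all genes, and 0 to 1 were lower. At a fold of 1.5 in place of 2, 4 members passed, and with a fold of 2 and 1 array left out 0 to 1 did. Shares of all genes at these settings are not given here. Medians with quantile normalization were 0.30 for the α ring and 0.15 for the lid. With 1 array left out, medians ran from 0.20 to 0.37 over all members, 0.29 to 0.51 for the α ring, 0.15 to 0.33 for the lid and -0.18 to 0.060 for the immunoproteasome and thymoproteasome genes. With quantile normalization 5 members turned negative, *Psmb7* (-0.051), *Psmc5* (-0.079), *Psmd12* (-0.093), *Psmd6* (-0.010) and *Psmd7* (-0.014), and *S100b* was -0.011 with values under background raised to it. The cause of these shifts was not tested.

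Of the 38 members, 10 changed sign with 1 array left out. These were *Psmc1* (-0.17 to 0.63), *Psmc5* (-0.095 to 0.26), *Psmd12* (-0.077 to 0.18), *Psmb7* (-0.11 to 0.24), *Psmb5* (-0.031 to 0.46), *Psmb9* (-0.12 to 0.37), *Psmb10* (-0.45 to 0.24), *Psmb11* (-0.081 to 0.26), *Psma8* (-0.33 to 0.24) and *Psmd5* (-0.62 to 0.38). Of the 32 other genes followed through the alternatives, those that did were *Fbxo30* (-0.091 to 0.66), *Myh11* (-0.097 to 0.63), *Acta2* (-0.030 to 0.39), *S100b* (-0.11 to 0.32) and *Sox10* (-0.23 to 0.036). Over all genes, 1 passed an adjusted p of 0.05 without *Slug*+/+ replicate 2 and none under the other alternatives. Replicate numbers are shared by the genotypes, but arrays of the same number did not deviate together (r of 0.03, 0.02 and 0.13, and 2 of 6 arrays correlated best with their own number). With the replicate block 6 members were higher, beside 3.83% of all genes, and 4 of them were among the 6 above. The floor at background gave no value for genes under it on all arrays. Brightness on arrays gives no depth, and values near background understate differences.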
